A study of Mus musculus with 24 samples.

Results

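The AP-1 and BATF genes described here are Fos, Fosb, Fosl1, Fosl2, Jun, Junb, Jund, Batf, Batf3 and Atf3. They were taken by name from the abundance table, with earlier results of these data known, and they are 10 of 22009 named genes. Expression was measured by RNA sequencing of CD4 T cells from spleens of adult wild-type C57BL/6 mice, pooled from several mice and isolated by magnetic negative selection. Values are RPKM, which are read counts divided by transcript length and by library size.

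Resting cells gave 2 libraries. Th0 cultures received plate-bound anti-CD3e at 5 µg/ml and soluble anti-CD28 at 1 µg/ml, which stimulate the T cell receptor and the co-stimulatory receptor CD28. Th1 cultures received these with anti-IL-4 at 5 µg/ml and IL-12 at 10 ng/ml. Th2 cultures received them with IL-4 at 20 ng/ml, anti-IFN-γ at 5 µg/ml and anti-IL-12 at 5 µg/ml. Each culture was sequenced once at 4, 8, 12, 16, 20 and 24 h, which gave 18 libraries. In a further 4 libraries, actinomycin, which blocks transcription, was added after 16 h of stimulation and cells were taken 0, 1, 2 and 4 h later. The labels do not give the skewing condition of these 4. The titles of the resting libraries carry another number than those of the 18 cultures, and the actinomycin titles carry no such number. The labels do not say what the number marks, and what it marks cannot be told apart from activation in any comparison with resting cells.

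AP-1 is a pair of basic leucine zipper proteins, usually 1 Fos protein bound to 1 Jun protein. In T cells it is made and activated downstream of the T cell receptor and CD28, and it binds composite sites with NFAT at cytokine genes such as Il2. BATF and BATF3 lack the activation domain of Fos, pair with Jun proteins and recruit IRF4 or IRF8. ATF3 is a stress-responsive family member that can pair with Jun proteins. Fos, Fosb, Jun and Junb are classical immediate-early genes, whose mRNA is made within minutes of a stimulus and is short-lived.

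All 10 genes are protein-coding in the GENCODE annotation of GRCm38. Fos and Batf lie close together on chromosome 12, at chr12:85473890-85477273 and chr12:85686669-85709087, both on the plus strand. Batf3 and Atf3 lie close together on chromosome 1, at chr1:191097847-191108945 on the plus strand and chr1:191170296-191218039 on the minus strand. Junb (chr8:84974484-84978718, minus strand) and Jund (chr8:70698949-70700616, plus strand) share chromosome 8. The others are Fosb at chr7:19302696-19310051 and Jun at chr4:95049034-95052222, both on the minus strand, and Fosl1 at chr19:5447547-5455946 and Fosl2 at chr5:32135801-32157842, both on the plus strand. Jun and Jund each have a single exon. Some members share sequence with a gene on the opposite strand, and whether strand was used in the counting is not given in the sources used here. For Fosl1, 52.6% of the 50-base windows of its GENCODE transcripts are shared with Ccdc85b, and for Jund, 48.3% are shared with Gm11175. Without strand, reads from these shared windows cannot be told apart within each pair. For Jund, the spacing of its RPKM values implies a length of 2878 bases, where its GENCODE transcript has 1668. The 48.3% thus need not hold for the sequence that was counted. The shared portion was 5.83% for Jun (with Junos), 5.76% for Junb (with Prdx2) and 0 for the other 6 genes.

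RefSeq promoter sequence (GRCm38.p6) was available for 9 of the 10 genes, all except Fosl1. The 250 bases before the start of Fos, Jun and Atf3 are shown because Fos had the largest log2 difference from rest of the members, and Jun and Atf3 were the members that differed between Th2 and the other cultures. Capitals mark the windows that differ by at most 1 base from TGACGTCA, the palindromic site bound by CREB, ATF and Jun dimers.
Fos, chr12:85473640-85473889, plus strand: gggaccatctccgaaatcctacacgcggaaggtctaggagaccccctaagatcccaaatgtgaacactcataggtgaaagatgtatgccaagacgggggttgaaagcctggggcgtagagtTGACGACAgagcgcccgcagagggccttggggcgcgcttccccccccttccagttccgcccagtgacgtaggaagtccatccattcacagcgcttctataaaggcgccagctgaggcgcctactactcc
Jun, chr4:95052223-95052472, minus strand: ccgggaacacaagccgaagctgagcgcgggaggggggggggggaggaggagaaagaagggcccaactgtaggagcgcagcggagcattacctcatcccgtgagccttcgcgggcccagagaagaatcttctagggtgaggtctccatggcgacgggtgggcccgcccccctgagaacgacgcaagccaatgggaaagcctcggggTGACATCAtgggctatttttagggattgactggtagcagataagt
Atf3, chr1:191183334-191183583, minus strand: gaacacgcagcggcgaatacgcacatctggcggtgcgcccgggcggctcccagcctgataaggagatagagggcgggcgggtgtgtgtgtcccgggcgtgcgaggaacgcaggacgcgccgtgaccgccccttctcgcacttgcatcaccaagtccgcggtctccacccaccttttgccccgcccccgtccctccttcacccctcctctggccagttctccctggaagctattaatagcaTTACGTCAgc

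These windows begin at -129 in Fos, -45 in Jun and -10 in Atf3 from the RefSeq gene start, and 12.5% of 32851 promoter windows of the same length hold such a match. The windows of Atf3, Fosl2 and Batf3 lie inside their GENCODE genes, downstream of the outermost starts. The Jund window, at chr8:70697489-70697738, ends before the GENCODE start of that gene at 70698949. No match to the AP-1 site TGACTCA, to TGACGTCA itself, to the STAT6 site (TTC and GAA set 4 bases apart) or to a CArG box was present in any of the 9 windows on either strand. The share of all promoter windows with a match was 5.2%, 1.79%, 6.95% and 1.63% for these 4 motifs. The more general STAT site, with a gap of 3 bases, matched once, at -239 in Batf3, against 8.3% of all windows. A match is a description of the letters in these windows only.

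The libraries held 17512386 to 33017132 mapped reads, recovered from the spacing of the RPKM values. Read counts could be recovered for Fosb, Fosl1, Fosl2, Junb, Jund, Batf and Batf3, so their ratios carry 95% intervals that cover counting error only, and no interval is given for Fos, Jun and Atf3. The T cell markers Cd3d, Cd3e, Cd3g, Cd4, Cd5 and Lck summed to between 1065 and 1793 RPKM in the time course and none was at 0. The summed level of 10 macrophage and monocyte markers was 508 and 532 RPKM in the resting libraries, 44.9 to 76.7 at 4 h and 7.78 to 12.4 at 24 h. Red-cell transcripts summed to between 15550 and 23860 RPKM at 4 h and between 73.7 and 107.9 at 24 h.

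The first question was how AP-1 transcripts changed between resting cells and activated cultures. The 4 classical immediate-early members were at their highest in resting cells and lower in each of the 18 cultures. Fosl1 and Fosl2 were higher in each of the 18. The share of all genes that lay outside the resting libraries in every culture is not given here. In these bulk libraries, fewer cells of a type and less RNA per cell cannot be told apart. In the fits over time, the Th0, Th1 and Th2 cultures of a time point, each sequenced once, served as its replicates. The p-values of these fits measure the spread between those cultures and between the resting libraries, and not between animals. Of the members, 9 passed the filter of a mean of 1 RPKM. Of these, 6 changed at 4 h against resting cells (adjusted p below 0.05 and at least 2-fold, limma, Benjamini-Hochberg). Fosl1 and Fosl2 rose, against 2.61% of 10897 genes called higher, and Fos, Fosb, Jun and Junb fell, against 7.97% called lower. Under quantile normalization the share of called genes that were higher, over all genes, was 42.9% in place of 24.7%, and the calls of these 6 members did not change.

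**Figure D1:**
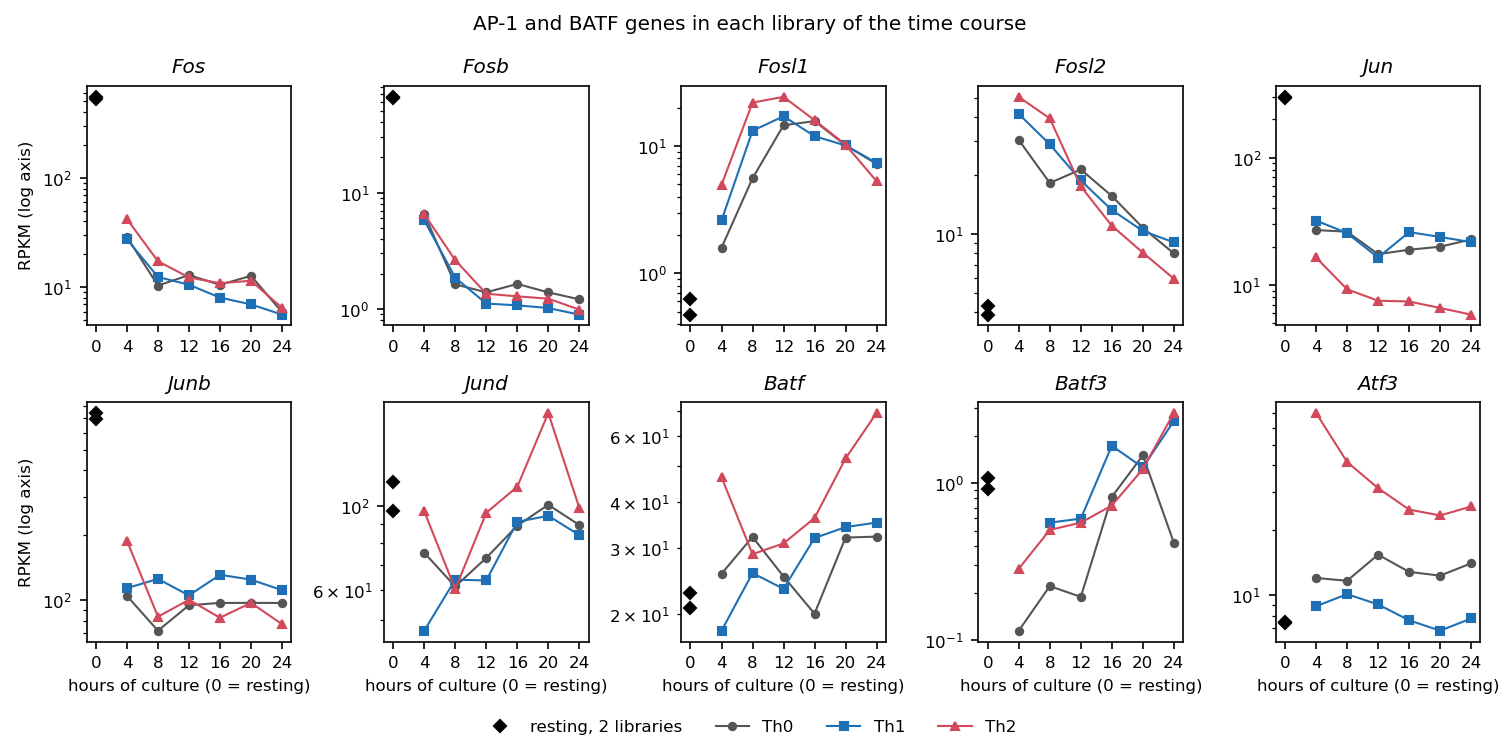
RPKM (log axis, its range set for each gene) of the 10 genes against hours of culture. Diamonds at 0 are the 2 resting libraries, and circles, squares and triangles are single Th0, Th1 and Th2 libraries. Fos, Fosb, Jun and Junb lie below both resting libraries in all 18 cultures, Fosl1 and Fosl2 above both, and Atf3 is highest and Jun lowest in Th2 at every time. Batf3 at 4 h in Th1, at 0 RPKM, is not drawn.

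Fos, the founding member of the family, was at 531 and 551 RPKM in the resting libraries. At 4 h it was at 28.8 in Th0, 27.5 in Th1 and 42.1 in Th2, and at 24 h at 5.95, 5.63 and 6.50. The groups did not overlap, and the highest culture was 12.9 times below the resting mean. On the log2(RPKM + 0.5) scale, Fos fell by 4.05 at 4 h (SE 0.24, adjusted p = 3.38e-09, limma) and fell by 6.38 at 24 h (SE 0.24, adjusted p = 1.2e-12, limma).

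Fosb, a close relative of Fos, was at 65.3 and 66.1 RPKM in resting cells. At 4 h it was at 6.49, 5.78 and 6.51 RPKM in Th0, Th1 and Th2, and at 24 h at 1.21, 0.896 and 0.990. Like Fos, it was below both resting libraries in all 18 cultures. Its log2 level fell by 3.29 at 4 h (SE 0.17, adjusted p = 8.32e-10, limma) and fell by 5.44 at 24 h (SE 0.17, adjusted p = 2.57e-13, limma).

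Fosl1, which encodes FRA1, was nearly silent in resting cells at 0.623 and 0.473 RPKM. At 4 h it was at 1.59 in Th0, 2.60 in Th1 and 4.95 in Th2, and the mean of the 3 cultures reached 18.7 ± 5.07 RPKM (SD, n = 3) at 12 h, which was 34.1 times the resting mean. By 24 h it was back to 7.23, 7.37 and 5.29 RPKM. Its log2 level rose by 1.65 at 4 h (SE 0.41, adjusted p = 0.00586, limma) and by 2.76 at 24 h (SE 0.41, adjusted p = 2.69e-05, limma). The call at 4 h was lost without resting replicate 2 or without the Th1 cultures, where its adjusted p was at most 0.0585. Ccdc85b, which overlaps it, was at 11.03 RPKM in resting cells and at 8.51 and 12.1 on average at 4 and 24 h.

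Fosl2, which encodes FRA2, peaked earlier than Fosl1. It was at 3.89 and 4.30 RPKM in resting cells and at 30.4, 41.2 and 50.4 in Th0, Th1 and Th2 at 4 h. From there the mean of the 3 cultures went down at each time, to 28.8 at 8 h, 19.3 at 12 h, 13.4 at 16 h, 9.76 at 20 h and 7.68 at 24 h. Its log2 level rose by 3.13 at 4 h (SE 0.26, adjusted p = 2.16e-07, limma), and the value at 24 h was 0.81 above resting (SE 0.26, adjusted p = 0.0128, limma), short of 2-fold.

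The Fos family therefore differed in make-up as well as in sum. Its summed level was 611.4 ± 14.6 RPKM in resting cells (SD, n = 2), 82.8 ± 19.0 at 4 h and 21.4 ± 2.32 at 24 h (SD, n = 3 each). Fos itself made up 88.4% and 88.6% of the sum in the resting libraries, 35.7 to 42.9% at 4 h and 24.5 to 34.7% at 24 h. Fosl2 went from 0.647 to 0.692% at rest to 45.1 to 53.5% at 4 h, and Fosl1 from at most 0.104% to 28.3 to 32.3% at 24 h. These shares compare levels per transcript length, and the ranges at rest and in culture did not overlap for Fos, Fosl1 or Fosl2.

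**Figure D2:**
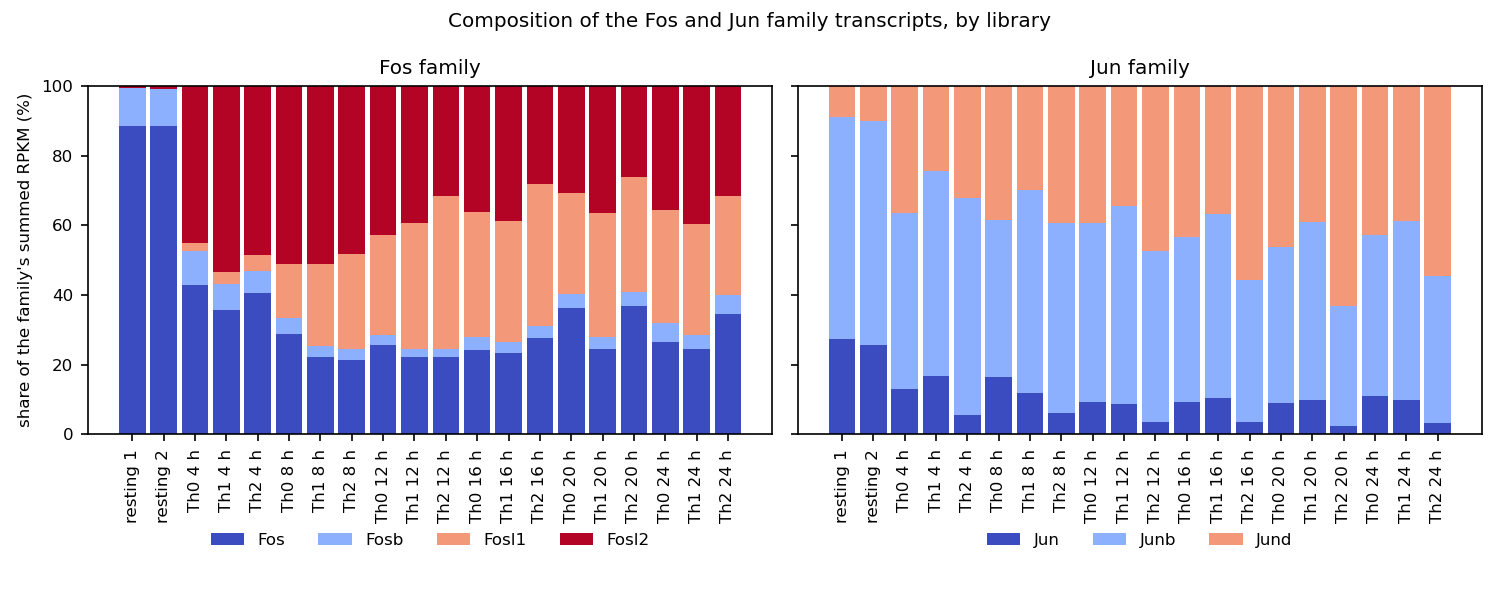
Share (%) of each gene in the summed RPKM of the Fos family (left) and the Jun family (right), 1 bar for each library of the time course. Fos fills 88.4 and 88.6% of the resting bars and no more than 42.9% at 4 h, and the Jun portion is smallest in the Th2 bar at every time point.

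Jun, the founding Jun protein, was at 300.2 and 296.5 RPKM in resting cells. At 4 h it was at 27.0 in Th0, 32.1 in Th1 and 16.5 in Th2, and the 18 cultures ranged from 5.85 to 32.1 RPKM. No culture approached the resting level. Its log2 level fell by 3.59 at 4 h (SE 0.65, adjusted p = 0.000502, limma) and fell by 4.33 at 24 h (SE 0.65, adjusted p = 2.79e-05, limma). The difference between 4 h and 24 h was -0.74 (SE 0.58, adjusted p = 0.276, limma).

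Junb had the highest level per length of the 10 genes in resting cells, 693 and 741 RPKM. It was at 104, 113 and 189 RPKM in Th0, Th1 and Th2 at 4 h and at 96.8, 111 and 77.1 at 24 h. Junb and Jund were the 2 highest of the 10 in each culture. Its log2 level fell by 2.45 at 4 h (SE 0.26, adjusted p = 2.67e-06, limma) and fell by 2.92 at 24 h (SE 0.26, adjusted p = 8.51e-08, limma). Prdx2, which overlaps Junb over a small part, was at 295.9 RPKM in resting cells and at 182.9 and 103.7 on average at 4 and 24 h.

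Jund, the most steadily expressed Jun gene, was at 96.9 and 116 RPKM in resting cells and at 75.3, 46.7 and 97.1 in Th0, Th1 and Th2 at 4 h. Of the 18 cultures, 13 lay below both resting libraries, 4 between them and 1, Th2 at 20 h with 177 RPKM, above. The log2 difference from rest was -0.60 at 4 h (SE 0.27, adjusted p = 0.105) and -0.23 at 24 h (SE 0.27, adjusted p = 0.476), and neither passed the limma test. With Jun and Junb lower, the Jund share of the Jun family went from 8.89 to 10.1% at rest to 38.7 to 54.4% at 24 h.

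Batf was present at rest, at 22.7 and 20.8 RPKM, and was at 25.6, 18.01 and 46.6 RPKM in Th0, Th1 and Th2 at 4 h. At 24 h it was at 32.2, 35.2 and 69.3 RPKM, all above both resting libraries. The log2 difference at 24 h was 0.96 (SE 0.36, adjusted p = 0.0259, limma), just short of 2-fold. It reached 2-fold under median-of-ratios and upper-quartile scaling and without the Th0 or the Th1 cultures.

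Batf3 was near the limit of detection and was not tested in the time course. It was at 0.924 and 1.07 RPKM in resting cells, from 13 and 18 reads. At 4 h there were 2 reads in Th0, 4 in Th2 and 0 in Th1, and at 24 h it was at 0.419, 2.49 and 2.80 RPKM in Th0, Th1 and Th2, from 8, 49 and 51 reads. Without the filter, the log2 difference from resting cells was -1.26 at 4 h (SE 0.43, adjusted p = 0.0395, limma), which passed the test, and 0.48 at 24 h (SE 0.43, adjusted p = 0.386, limma), which did not. That between 24 h and 4 h was 1.74 (SE 0.38, adjusted p = 0.00142, limma).

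Atf3 was at 7.35 and 7.46 RPKM in resting cells. At 4 h it was at 12.0, 8.84 and 70.2 RPKM in Th0, Th1 and Th2. The rise was thus large in Th2 and small in the other cultures, and over the 3 cultures the log2 difference of 1.35 was within its error (SE 0.81, adjusted p = 0.223, limma).

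At 24 h against resting cells, 5 of the 9 tested members were called. Fosl1 was higher, against 12.7% of all tested genes, and Fos, Fosb, Jun and Junb were lower, against 17.4%. Quantile normalization moved the median log2 difference of all genes from -0.04 to 0.13 and the higher share of called genes from 42.3% to 53.4%, and median-of-ratios scaling moved that median to 0.10. Between 4 h and 24 h, Fosl1 rose by 1.11 (SE 0.37, adjusted p = 0.0146, limma), against 13% of tested genes called higher. Fos fell by 2.33, Fosb fell by 2.14 and Fosl2 fell by 2.32, against 13.2% called lower. The Fosl1 rise was lost without the Th0 cultures, without the Th1 cultures and with a pseudocount of 1 RPKM.

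Macrophage markers were also highest in the resting libraries, some heat shock transcripts and the sum of the red cell markers differed between the same times, and their part in the AP-1 values was not tested. The 10 macrophage and monocyte markers summed to 507.7 and 531.6 RPKM at rest, 44.9 to 76.7 at 4 h and 7.78 to 12.4 at 24 h. Of the 10 macrophage and monocyte markers, 8 were tested and 7 fell at 4 h, beside 7.97% of all genes called lower. Their median log2 difference was -3.52. Mrc1, the mannose receptor, fell by 4.35 and C1qc, a complement subunit, fell by 3.87. Of 8 heat shock genes, 4 fell at 4 h and none rose. At 24 h against resting cells, where 17.4% of all genes were called lower and 12.7% higher, 4 had fallen and 2 had risen. The 2 were Hspe1, 3.40-fold higher, and Hsp90aa1, 2.03-fold higher. Hspa1a, an inducible chaperone, went from a mean of 219.4 RPKM at rest to 15.9 at 4 h, a level 13.6-fold lower on the log2(RPKM + 0.5) scale. T cell markers were 1776 and 1793 RPKM at rest and 1065 to 1171 at 4 h. The 5 red cell markers in the table summed to 19530.0 and 21600.0 RPKM at rest, 15550.0 to 23860.0 at 4 h and 73.7 to 107.9 at 24 h.

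The other immediate-early genes did not share one direction. Of 17 such genes, 6 rose and 4 fell at 4 h, beside 2.61% of all genes called higher and 7.97% called lower. Their median log2 difference was 0.18, beside -0.05 for all genes. Nr4a3, an orphan nuclear receptor induced by the T cell receptor, went from 7.66 RPKM to a mean of 217.2, and Egr3, a zinc finger factor of the same response, from 4.90 to 59.2. Dusp1, a MAP kinase phosphatase, went from 226.1 to 29.4 RPKM and Klf4 from 20.4 to 2.34. Fos, Fosb, Jun and Junb thus moved in the direction of Dusp1 and Klf4 and opposite to Nr4a3 and Egr3.

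Among 28 kinases and factors upstream of AP-1, 28 were tested, 2 rose and 3 fell at 4 h, with a median of 0.03. Of all genes, 2.61% were called higher and 7.97% lower at that time. Map2k3, which activates p38, rose by 1.78, while Map2k6, another activator of p38, fell by 2.51. Of 23 tested other leucine zipper factors, 3 rose and 2 fell. Crem, a cAMP-responsive factor, went from 10.3 to 178.2 RPKM and Bach1, a repressor, rose by 1.18, whereas Cebpb fell by 1.57 and Maf fell by 1.29. Most of the upstream genes and other leucine zipper factors thus did not pass the test.

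Of 11 tested cytokine and receptor genes known as AP-1 and NFAT targets, 8 were called higher at 4 h and none lower, beside 2.61% of all genes called higher. Their median log2 difference was 1.98, beside -0.05 for all genes. Il2, the T cell growth factor, went from 1.37 RPKM to a mean of 21.7 at 4 h and 142.1 at 24 h. Il13, a type 2 cytokine, rose by 3.25 at 4 h. Of the 8 BATF partners and targets, 2 rose at 4 h. Irf4, the partner of BATF, went from 10.5 to 143.3 and 274.1 RPKM, and Icos, a co-stimulatory receptor, from 29.5 to 90.6 and 138.6. At 24 h 3 had risen, among them Irf8 by 2.76, and Prdm1, which encodes BLIMP-1, had fallen by 1.66. Of all genes, 12.7% were called higher and 17.4% lower at 24 h.

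The second question was whether the members differed between skewing conditions. Jun was lower and Atf3 higher in Th2 than in both other conditions at each of the 6 time points. The share of all genes with such an order, or with ranges that did not overlap between conditions, is not given here. Jun ranged from 5.85 to 16.5 RPKM in the 6 Th2 libraries (median 7.47), from 17.5 to 27.0 in Th0 (median 21.4) and from 16.4 to 32.1 in Th1 (median 24.7). The ranges of Th2 and Th0 did not overlap, and the Th2 value of 16.5 at 4 h was just above the lowest Th1 value of 16.4 at 12 h. In a fit with condition and time as factors, Jun fell by 1.34 in Th2 against Th0 (SE 0.12, adjusted p = 1.76e-06, limma) and fell by 1.46 against Th1 (SE 0.12, adjusted p = 6.87e-07, limma). Each culture was sequenced once at each time, and the series come from 1 pool of cells. With time as a factor, these p-values measure how far the condition differences varied from time to time, and not the spread between animals.

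Atf3 ranged from 23.4 to 70.2 RPKM in Th2 (median 28.6), from 11.6 to 15.4 in Th0 (median 12.5) and from 6.80 to 10.1 in Th1 (median 8.30). The 3 ranges did not overlap. Its log2 level was 1.33 higher in Th2 than in Th0 (SE 0.17, adjusted p = 5.09e-05, limma) and 1.95 higher than in Th1 (SE 0.17, adjusted p = 1.16e-06, limma). From 12 h on, the difference from Th0 was 0.93, short of 2-fold. Between Th1 and Th0 the value was -0.61 (SE 0.17, adjusted p = 0.086, limma), with the Th1 library lower at 6 of 6 times.

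Of the 9 members tested, these 2 were the ones called. The background was 0.186% of 10737 genes called higher and 1.83% called lower in Th2 against Th0, and 0.568% higher and 1.39% lower in Th2 against Th1. Between Th1 and Th0 none of the 9 members was called, where 0.177% of genes were higher and 0.317% lower. At an unadjusted p under 0.05, 2 members (Atf3 and Junb) passed there, with Junb 0.34 higher in Th1 (SE 0.14, adjusted p = 0.255, limma). Junb was higher in Th1 than in Th0 at 6 of 6 times, by 1.09 to 1.74 times, each beyond counting error.

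**Figure D3:**
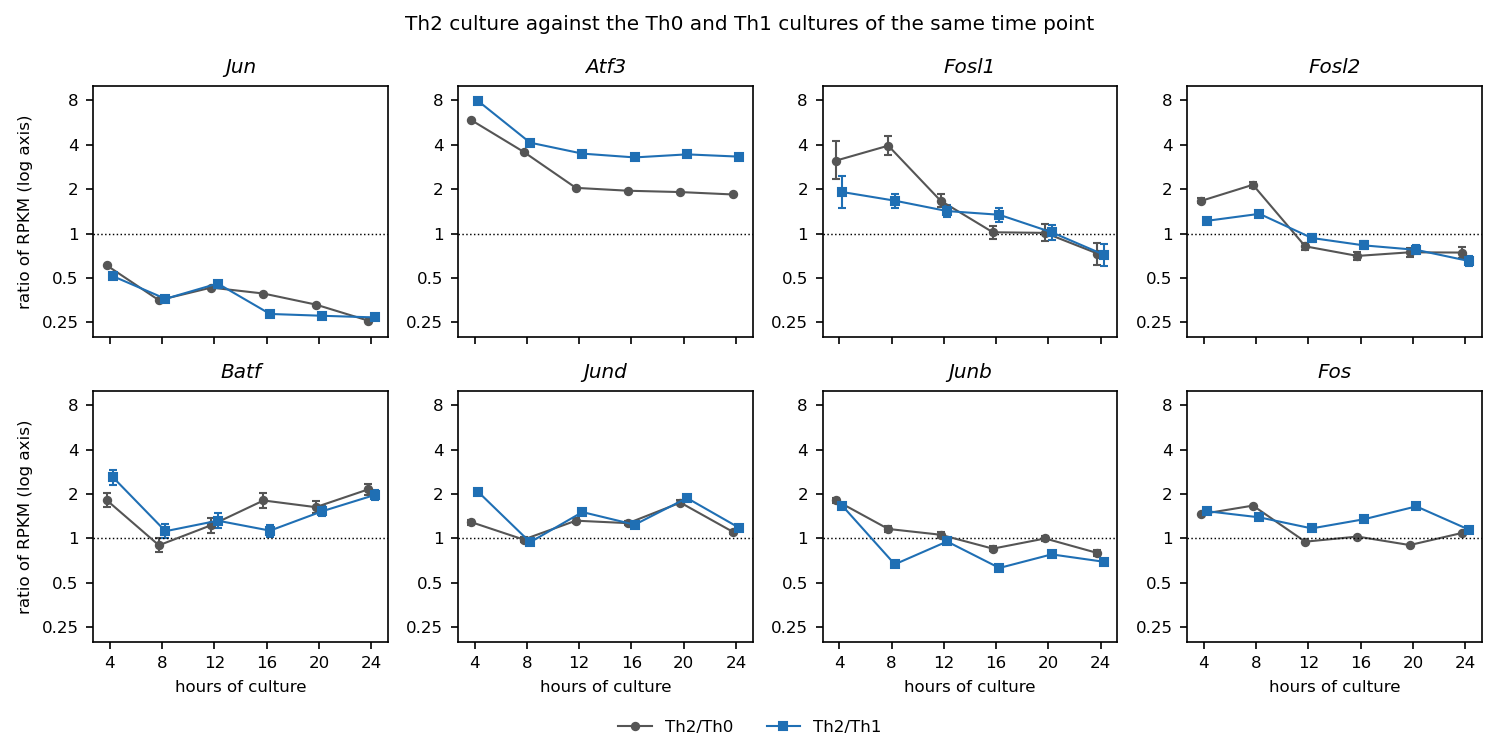
Ratio (log axis) of the RPKM in the Th2 library to that in the Th0 (circles) and Th1 (squares) library of the same time point, for 8 genes. Bars are 95% intervals from read counts where reads could be recovered, and the dotted line marks equal levels. Jun lies below the line and Atf3 above it at every time, and Fosl1 and Fosl2 start above the line and end below it.

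Batf was 1.52-fold higher in Th2 than in Th0 (adjusted p = 0.0093, limma) and 1.53-fold higher than in Th1 (adjusted p = 0.0147, limma), below the 2-fold limit. It ranged from 28.9 to 69.3 RPKM in Th2, from 20.0 to 32.2 in Th0 and from 18.01 to 35.2 in Th1. The Th2 to Th0 ratio was 1.82 at 4 h (95% interval 1.64 to 2.02), 0.899 at 8 h (0.804 to 1.0) and 2.15 at 24 h (1.98 to 2.34). Th2 was thus higher beyond counting error at 5 of 6 times.

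Jund was 1.27-fold higher in Th2 than in Th0 (adjusted p = 0.0441, limma) and 1.42-fold higher than in Th1 (adjusted p = 0.0107, limma), and Fos was 1.34-fold higher in Th2 than in Th1 (adjusted p = 0.0227, limma). Jund ranged from 60.2 to 177 RPKM in Th2, from 61.2 to 100.9 in Th0 and from 46.7 to 94.4 in Th1. Its largest Th2 to Th0 ratio was 1.75 (1.70 to 1.81) at 20 h. Gm11175, which shares sequence with Jund, was the gene most like it over the 20 libraries (Pearson r = 0.98).

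Fosl1 and Fosl2 crossed over between conditions. The Th2 to Th0 ratio of Fosl1 was 3.12 at 4 h (2.33 to 4.21), 3.94 at 8 h (3.40 to 4.58), 1.67 at 12 h (1.51 to 1.86) and 0.732 at 24 h (0.616 to 0.868). That of Fosl2 was 1.66 at 4 h (1.60 to 1.73), 2.14 at 8 h (2.04 to 2.24), 0.819 at 12 h (0.774 to 0.867) and 0.743 at 24 h (0.681 to 0.810). Both were thus higher in Th2 than in Th0 at 4 and 8 h, and Fosl1 at 12 h too, beyond counting error. The Fosl1 ratio was 1.02 at 16 h (0.912 to 1.13) and 1.01 at 20 h (0.884 to 1.16), so it was lower beyond counting error at 24 h alone. Fosl2 was lower beyond counting error from 12 h on. The Th1 to Th0 ratio was also above 1 early, at 1.64 and 2.37 for Fosl1 and 1.36 and 1.58 for Fosl2 at 4 and 8 h. Fosl1 reached its highest level at 12 h in Th1 and Th2 and at 16 h in Th0.

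This drift was tested, after the values had been seen, as the change of the Th2 to Th0 difference with time. The log2 difference changed by -0.11 per h for Fosl1 (SE 0.02, adjusted p = 0.00572, limma), a 4.56-fold change over 20 h. It changed by -0.073 per h for Fosl2 (SE 0.02, adjusted p = 0.0253, limma) and by -0.078 per h for Atf3 (SE 0.02, adjusted p = 0.0148, limma). Of all genes, 3.21% were called with a falling and 0.717% with a rising difference. Without the 20 h time point the calls of Fosl2 and Atf3 were lost, and without the 4 h time point that of Atf3. Fosl2 also lost its call without the 8, 16 or 24 h time points and without the filter. Leaving out the 8 h time point added Jun and Junb, at -0.056 and -0.054 per h, and leaving out the 4 h time point added Batf with a rising difference of 0.072 per h (adjusted p = 0.00874, limma). Against Th1, none of the 9 members was called (0.689% falling, 0.261% rising), and 5 members passed at an unadjusted p under 0.05, with the lowest adjusted p being 0.12 for Fosl1. Leaving out the 8 h time point called Fosl1 and Junb there.

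At 4 h the Th2 library had the highest level of every member but Jun, which was lowest there, with Fos at 42.1 RPKM. For Fosb (6.51 beside 6.49 RPKM in Th0) and Batf3 (0.286 beside 0.115 RPKM in Th0) the excess was within counting error. The share of all genes highest in that library is not given here. The summed macrophage markers were also highest there, at 76.7 RPKM beside 55.6 in Th0 and 44.9 in Th1. So were the sums of the T cell, CD8 T cell, B cell, dendritic cell and red cell markers, while the neutrophil and NK cell sums were highest in Th1. The part of these markers was not tested. Between 8 and 24 h, Th2 had the lowest macrophage marker sum of the 3 conditions at each time, 7.78 to 23.56 RPKM. Lyz2, a lysozyme of myeloid cells, was the 1 marker of 6 tested that differed, 2.15-fold lower in Th2 than in Th0.

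None of 27 upstream kinases and factors was called in Th2 against Th0 or Th1, and Rasgrp1 was lower in Th1 than in Th0 (2.01-fold). Of 23 other leucine zipper factors, Nfil3, known for its part in type 2 responses, was 2.19-fold higher in Th2 than in Th1. Of 17 other immediate-early genes, Klf2, a factor of resting T cells, was 2.48-fold and Klf6 2.07-fold lower in Th2 than in Th0. Of the BATF partners and targets, Irf8 was 2.5-fold lower in Th2 than in Th0 and 3.88-fold lower than in Th1, and Il21 was 2.58-fold higher in Th1 than in Th0. Ifng, the Th1 cytokine, was 8.87-fold higher in Th1 than in Th0, and no cytokine or receptor of the list was called between Th2 and Th0. Of all genes, 0.186% were called higher and 1.83% lower in Th2 against Th0. The shares were 0.568% and 1.39% in Th2 against Th1, and 0.177% and 0.317% in Th1 against Th0. A falling Th2 to Th0 difference was called for 5 of 12 cytokines and receptors, led by Tnf and Ifng. It was also called for 8 of 17 immediate-early genes, led by Myc and Nr4a1, beside 3.21% of all genes. Heat shock genes gave no call between conditions.

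The third question was how the transcripts behaved once transcription was blocked. RPKM is relative to the mRNA left in each library, and the median gene stood at 96.1%, 93.9% and 98.5% of its 0 h value at 1, 2 and 4 h. Of the 10 members, 8 had their lowest value at 2 h, and Jund and Batf had theirs at 4 h. The median over all genes and the red cell marker sum (584.1 RPKM) were also lowest at 2 h. The share of all genes lowest at 2 h is not given here. The 4 h to 2 h ratio was within counting error for Junb (1.07, 0.971 to 1.18), Fosl1 (1.33, 0.979 to 1.80) and Jund (0.969, 0.908 to 1.03). Junb went from 83.1 RPKM at 0 h to 53.4, 24.5 and 26.1 RPKM, or 31.5% of the start at 4 h (29.2 to 33.9). Jund went from 68.2 to 67.5, 35.4 and 34.3 RPKM, or 50.2% (47.6 to 53.0). Atf3 went from 9.53 to 9.81, 2.81 and 3.68 RPKM, or 38.6%.

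**Figure D4:**
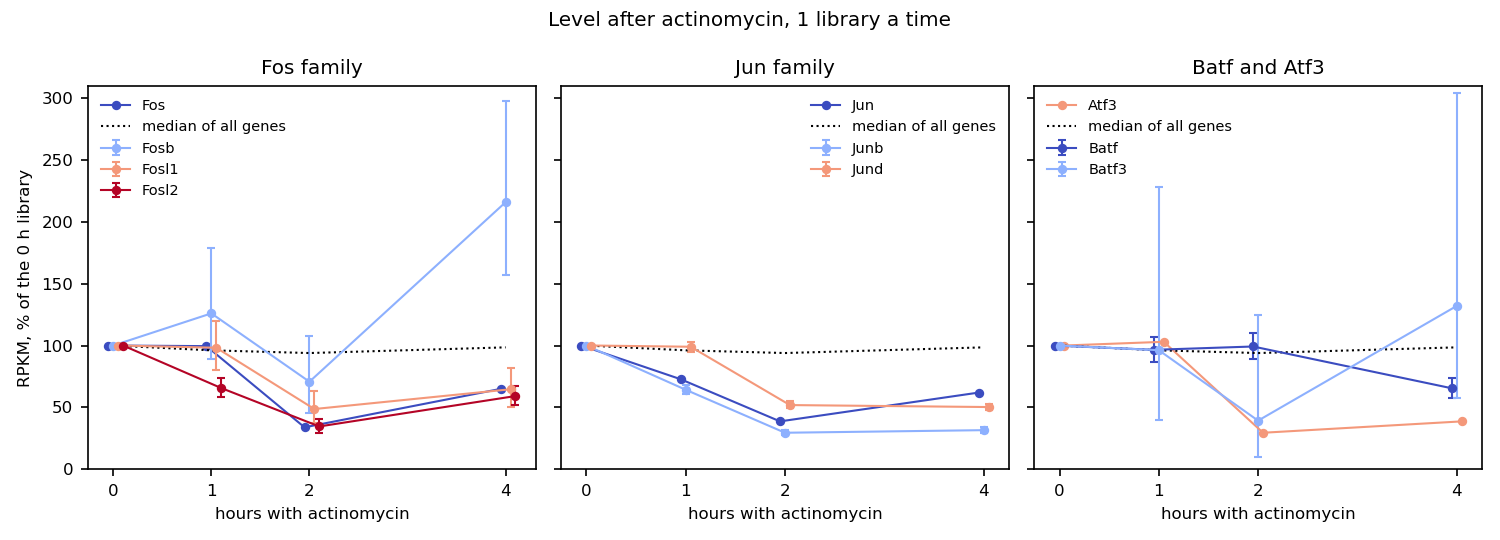
RPKM as a percentage of the 0 h library against hours with actinomycin, 1 library at each time, for the Fos family, the Jun family, and Batf, Batf3 and Atf3. Bars are 95% intervals from read counts where reads could be recovered, and the dotted line is the median of genes with at least 1 RPKM at 0 h. Of the 10 genes, 8 are lowest at 2 h, where the dotted line is lowest too. Batf is at 99.2% there, and Batf3 rests on 4 to 14 reads a library.

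Fos went from 5.75 to 5.72, 1.95 and 3.73 RPKM, and Jun from 12.3 to 8.96, 4.76 and 7.63 RPKM. Fosl1 stood at 48.6% at 2 h (37.1 to 63.2) and 64.6% at 4 h (50.5 to 82.0), and Fosl2 at 34.5% (29.4 to 40.3) and 59.1% (51.8 to 67.2). The level at 4 h exceeded that at 2 h beyond counting error for Fosl2, by 1.71 times (1.43 to 2.05), for Fosb, by 3.05 times (2.06 to 4.62), and for Batf3, by 3.37 times (1.04 to 14.2) from 4 and 13 reads. Fosb was low throughout, at 0.704 RPKM at 0 h and 1.52 at 4 h. Batf differed from these in order, with 99.2% at 2 h (89.1 to 110.0) and 65.4% at 4 h (57.8 to 74.0).

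As a straight line over the 4 libraries, Junb fell by 0.42 per h (SE 0.06, adjusted p = 6.48e-09, limma), Jund fell by 0.28 (SE 0.06, adjusted p = 7.06e-05, limma) and Atf3 fell by 0.37 (SE 0.08, adjusted p = 0.000174, limma). These were 3 of 8 tested members, against 5.58% of 10571 genes called lower and 3.97% higher. Without the filter no member was called, without the 0 h library only Atf3 was, and without the 4 h library Fos, Fosl2 and Jun were called too. The fit leaves 2 residual degrees of freedom a gene, so its error rests largely on the spread pooled over all genes. The slope for Batf was -0.15 (SE 0.06, adjusted p = 0.0522, limma), and those of Fos, Fosl1, Fosl2 and Jun were between -0.18 and -0.16 with adjusted p from 0.096 to 0.18 (limma). Among the lists, 9 of 17 other immediate-early genes, 7 of 11 cytokines and receptors and 4 of 8 BATF partners and targets fell, led by Dusp2, Cd69 and Irf4. Of the heat shock genes 4 of 7 tested fell, and of the neutrophil markers 3 of 4. Among 3 tested macrophage markers, Cd68 was 6.33-fold higher and Lyz2 2.15-fold lower over the 4 h, and the part of these genes in the members' slopes was not tested. None of the 27 upstream kinases and factors was called, and 4 of 23 other leucine zipper factors fell, led by Nfil3 and Maff.

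The starting library of this set stood apart from the 16 h cultures for several members. Fos, Fosb, Fosl1, Fosl2 and Jund were below all 3 cultures of 16 h. Fosl1, for example, was at 5.08 RPKM beside 12.0 to 16.0 RPKM in the cultures. Jun, Junb, Batf, Batf3 and Atf3 lay within the range of the cultures, with Atf3 at 9.53 RPKM between 7.60 and 24.9. The macrophage marker sum was 54.4 RPKM at the start, above the 11.5 to 27.5 RPKM of the 16 h cultures. The B cell marker sum was 3.337 RPKM at the start, below the 17.15 to 19.76 RPKM of those cultures.

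The genes most like each member over the 20 libraries of the time course were found among 10896 other genes by Pearson correlation of log2(RPKM + 0.5), as a description, since the libraries share a time course. Fos was most like Cfp (r = 0.99), Fosb (0.99) and Cd300c2 (0.99), and Fosb most like Treml4 (0.99), the macrophage marker Adgre1 (0.99) and Xk (0.99). Junb was most like Pilrb1 (0.97), Ccr3 (0.96) and Siglece (0.96). Several of these, such as Cfp, Adgre1 and Siglece, are known from myeloid cells. Jun was most like Emp3 (0.98), Sdc3 (0.96) and Itgb7 (0.96). Fosl1 was most like Hivep3 (0.99), Spry1 (0.99), a feedback inhibitor of the Ras pathway, and Txnrd3 (0.99), and Fosl2 most like Zswim4 (0.96), Crebzf (0.95) and Ramp3 (0.94). Atf3 was most like Trib1 (0.91), Nfil3 (0.88) and Prnp (0.87), and Batf most like Prps1 (0.86), Ralgds (0.84) and Lsm8 (0.84). Jund followed Gm11175, Rnf187 (0.86) and Csk (0.85), and Batf3 followed Etfb (0.86), Guf1 (0.86) and Cisd3 (0.85).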

How the data were processed

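Total RNA libraries of mouse CD4 T cells were sequenced by the authors on an Illumina instrument. The submitters' notes name BWA, with no version, and the build GRCm38, and the counting tool and strand setting are not given in the sources used here. The deposited values are RPKM for 22009 named genes (1 entry without a name was left out), and no count file was used. The paper's methods describe naive cells where the labels describe purified CD4 cells. Depth was recovered from the steps between low RPKM values. Of 16823 genes, 34.1% had values that were whole multiples of a step within 0.02 reads. Among these, 2072 had a single transcript, and 1236 of them (59.7%) gave the same read total within 0.1%, which was used. The depths are therefore estimates, and intervals cover counting error only.

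Contrasts were fitted with limma 3.58.1 in R 4.3.3 (eBayes with an intensity trend) on log2(RPKM + 0.5), leaving out genes whose mean was under 1 RPKM, with Benjamini-Hochberg adjustment over all genes. A gene was called at an adjusted p below 0.05 and at least 2-fold. Time contrasts used the 20 libraries of the time course, condition contrasts the 18 cultures with time as a factor, and the actinomycin slope its 4 libraries, with the 2-fold limit over 4 h. The change with time of the difference between conditions, with the 2-fold limit over 20 h, was added after values were seen. A fold from log2(RPKM + 0.5) understates the change of low genes. The fits were tested on simulated data. The members and gene lists were chosen with earlier results of these data known. All 10 members were named, as were the 2 called genes of each list with the largest rise and fall in a contrast and the 3 genes most like each member. Some genes that this rule names are not reported here. Other pseudocounts, filters, scalings and left-out libraries were tried.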

Additional observations from a re-analysis of the deposited data

Results flagged for a closer look

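The difference between Th2 and Th0 cultures changed with time for 3 members in the test of that change (limma, condition by hours, added after the values were seen). The log2 difference changed by -0.11 per h for Fosl1, by -0.073 per h for Fosl2 and by -0.078 per h for Atf3. For Fosl1 and Fosl2 the Th2 library was the higher one at 4 and 8 h and the lower one at 24 h, and for Atf3 it was the higher one at all 6 times. No group of libraries held 4 to 10 replicates, so no library could be tested against the others of its group.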

How the results depend on the processing

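Of 128 recomputed counts of called members, 122 were within 1.5 times the reported count. In Th2 against Th0, 12 to 24 h alone called 1 member (Jun) in place of 2. For the actinomycin slope, 0 members were called without the filter and 1 to 6 on leaving out a library, in place of 3. For the change of the Th2 to Th0 difference with time, 1 to 4 were called on leaving out a time point, in place of 3, and against Th1, 0 to 2 in place of 0. The causes were not tested. Of 1132 recomputed log2 values, 29 changed sign, none of them a called value. With 12 to 24 h alone, Th2 against Th0 gave -0.012 for Fos, -0.39 for Fosl2 and -0.12 for Junb, and Th1 against Th0 gave -0.033 for Fosl1, -0.072 for Fosl2 and 0.19 for Batf. Fosb in Th2 against Th0 was 0.10 under quantile, 0.0088 under upper-quartile and 0.026 under median-of-ratios scaling, and Batf in Th1 against Th0 was 0.0054 under upper-quartile and 0.013 under median-of-ratios scaling. The other sign changes came from leaving out 1 condition, time point or library. Batf at 4 h ranged from -0.016 to 0.66 and Atf3 between 24 and 4 h from -0.80 to 0.019. Th2 against Th0 ranged from -0.12 to 0.040 for Fosb, from -0.17 to 0.14 for Fosl2 and from -0.051 to 0.18 for Junb. Fosl2 in Th2 against Th1 ranged from -0.20 to 0.0035 and Batf in Th1 against Th0 from -0.14 to 0.091. The actinomycin slope of Fosl2 ranged from -0.66 to 0.0087 per h. The change with time of the difference from Th0 ranged from -0.0027 to 0.031 per h for Jund. That of the difference from Th1 ranged from -0.018 to 0.0025 for Fos, from -0.029 to 0.024 for Jund and from -0.037 to 0.045 for Batf. No paired analysis was possible because the labels number replicates only in the resting group. In the comparisons between conditions, time was a factor of the model, which matched the libraries by time point.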
